A study of Mus musculus with 12 samples.

Results

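The goblet cell and mucin genes described here are 32 genes chosen by name: 6 mucins, 8 secreted proteins of mucus or the goblet granule, 4 transcription factors, 4 proteins of the endoplasmic reticulum (ER) and early export, 3 proteins of granule traffic or unassigned goblet function, and 7 enzymes of mucin glycosylation. Each of the 32 names matched 1 row of a table of 54532 genes, and all 32 passed the filter on low values that left 24102 genes for testing. The table holds 12 libraries of total colonic RNA in 4 groups of 3. The samples are labelled only WT or CRE, and the design text of the series supplies the alleles. Tmem173fl/fl mice (WT) carry floxed alleles of Tmem173, the gene of STING, and lack Cre. Tmem173iΔmye mice (CRE) carry the same floxed alleles and Lyz2-Creert2 (Lzym-Creert2 in the design text), a tamoxifen-inducible Cre driven in myeloid cells. The mice were on the C57BL/6N background and, by the methods for the acute colitis model, 6 to 8 weeks old at DSS. Their sex is not given in the sources used here, and both genotypes, treated or not, had received 5 injections of tamoxifen. The Tmem173fl/fl + DSS and Tmem173iΔmye + DSS groups drank dextran sodium sulfate (DSS), which injures the colonic epithelium, for 7 days. Libraries are named by group and replicate number (1, 2 and 3, or 1, 2 and 5 in Tmem173iΔmye + DSS), and values are listed in that order.

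Goblet cells are secretory cells of the intestinal epithelium. They package the gel-forming mucin Muc2 with partner proteins into granules and release it as the mucus that separates the lumen from the tissue. Muc2 is folded and dimerised in the ER with the help of Agr2, is decorated with O-linked glycans in the Golgi, and expands on release into a layered gel. Atoh1 commits epithelial cells to the secretory lineage, and Spdef drives goblet cell maturation. Transmembrane mucins such as Muc3, Muc4 and Muc13 are also made by absorptive cells and cover the apical surface. Loss of mucus and of goblet cells is a known feature of colitis.

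Promoter sequences could be matched for 18 of the 32 genes (RefSeq, GRCm38.p6). They were read for the hexamer CAGCTG, an E-box of the kind that basic helix-loop-helix factors such as Atoh1 bind and a sequence that is the same on both strands. Over windows from 250 bases before to 50 bases after a start, CAGCTG was present in 4 of the 18 genes (C1galt1, Fcgbp, Muc2 and Pdia5), or 4 of their 22 promoter entries (18.2%), and in 16.3% of all 32851 entries. The unfolded protein response element TGACGTGG was in 0 of the 18 genes and in 0.676% of all promoters, and the ER stress response element, CCAAT and CCACG separated by 9 bases, in 0 of the 18 and in 0.119%, with both strands read for each. The 250 bases before the start are given for the 3 genes whose E-box lies upstream of the start (in C1galt1 it lies after the start) and for Muc13, which had no match and was called between genotypes under DSS and in the interaction described further on. Capitals mark CAGCTG. It begins 112 bases before the start in Muc2 (chr7:141690090-141690339, plus strand), 208 bases before it in Fcgbp (chr7:28070986-28071235, plus strand) and 134 bases before it in Pdia5 (chr16:35490874-35491123, minus strand). The Muc13 window is chr16:33793787-33794036 on the plus strand.
Muc2: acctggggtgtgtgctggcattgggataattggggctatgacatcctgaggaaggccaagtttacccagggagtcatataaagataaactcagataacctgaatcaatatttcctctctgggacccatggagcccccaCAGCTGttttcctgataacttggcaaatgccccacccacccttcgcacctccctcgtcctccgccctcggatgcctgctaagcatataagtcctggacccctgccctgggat
Fcgbp: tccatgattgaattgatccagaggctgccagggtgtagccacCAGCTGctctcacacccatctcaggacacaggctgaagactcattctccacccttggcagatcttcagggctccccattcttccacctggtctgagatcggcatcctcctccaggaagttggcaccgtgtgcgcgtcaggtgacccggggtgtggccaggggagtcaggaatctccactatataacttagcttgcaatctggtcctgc
Pdia5: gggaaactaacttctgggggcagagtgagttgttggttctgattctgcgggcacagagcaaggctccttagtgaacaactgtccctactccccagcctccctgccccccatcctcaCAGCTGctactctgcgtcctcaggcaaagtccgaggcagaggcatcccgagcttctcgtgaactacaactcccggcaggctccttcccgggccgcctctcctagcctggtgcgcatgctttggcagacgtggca
Muc13: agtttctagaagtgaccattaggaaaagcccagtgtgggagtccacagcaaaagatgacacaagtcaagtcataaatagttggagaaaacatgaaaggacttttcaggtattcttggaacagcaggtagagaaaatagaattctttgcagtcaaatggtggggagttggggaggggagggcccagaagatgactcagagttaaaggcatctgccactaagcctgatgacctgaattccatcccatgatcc

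Library totals ran from 13823237 to 18718915 counts, so depth was similar in all 12 libraries. The 32 genes took 2.63% to 4.7% of all counts in the untreated libraries, 1.32% to 2.09% in Tmem173fl/fl + DSS and 2.3% to 3.06% in Tmem173iΔmye + DSS. Muc2 alone took 0.571% to 1.69%. Tmem173 itself was at 41.3 ± 3.29 CPM (counts scaled to a common library size) in Tmem173fl/fl + DSS and 34.2 ± 12.3 CPM in Tmem173iΔmye + DSS (SD, n = 3). A loss in myeloid cells was thus not detected in these libraries of total colonic RNA (edgeR log2 fold change -0.28, adjusted p 0.602). The paper reported, from colon mRNA levels, that the myeloid knockout reduced the rise of STING in inflamed colon. Tmem173iΔmye + DSS replicate 5 lay apart on the second principal component, at -114 against a range of -26.5 to 31.6. On the first component it was at -32, between the untreated libraries (-72.95 to -47.55) and the other DSS libraries (15.55 to 119.8). It, Tmem173fl/fl replicate 3 and Tmem173iΔmye replicate 3 had 0 counts of 4 Y-linked genes, while the other 9 libraries had 2975 to 5085. The libraries may thus come from mice of both sexes. Tmem173fl/fl + DSS was the only group without a library lacking these counts, so comparisons with that group may be unbalanced in sex. Summed pancreas markers, which mark tissue beside the colon, were at 11490 CPM in Tmem173fl/fl + DSS replicate 1, 14680 CPM in Tmem173iΔmye + DSS replicate 1 and 6145 CPM in Tmem173fl/fl + DSS replicate 2, and at 107 to 4781 CPM elsewhere. Their part in the results was not tested.

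Per length of gene model, the untreated colon was dominated by few of the genes. In Tmem173fl/fl mice, Muc3 had the highest FPKM (fragment counts scaled for gene length and depth), 1930 ± 567, followed by Muc2 at 1598 ± 747, Clca1 at 1503 ± 611 and Zg16 at 1417 ± 298 (SD, n = 3). These 4 lay within their spread of each other. The deposited Muc3 model is 1943 bases long, and the RefSeq start for this gene lies 16724 bases upstream of where that model starts. The rank of Muc3 thus holds for that model only. The lowest levels were 4.74 FPKM for Muc1 and 0.989 FPKM for Muc20. In Tmem173fl/fl + DSS mice Muc2 had the highest group mean, 1026 ± 305 FPKM, while Clca1 was ninth at 108 FPKM. By group mean Zg16 was first in Tmem173iΔmye + DSS mice, at 1667 ± 302 FPKM. The spreads of Muc3 (1322 ± 440) and Muc2 (1312 ± 485) overlapped that of Zg16, and other genes exceeded Zg16 in replicates 2 and 5.

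The first comparison asked what DSS changed in mice with STING intact. Of the 32 genes, 13 were lower in Tmem173fl/fl + DSS than in Tmem173fl/fl and 0 were higher, by edgeR's quasi-likelihood test at an adjusted p under 0.05 and a log2 fold change of 1 or more in either direction. Over all genes tested, 7.61% were called lower and 14.9% higher. Levels of 20 genes did not overlap between the groups and were lower with DSS, against 25.5% of all genes. The median log2 fold change was -0.86 over the 32 genes and 0.03 over all genes. By adjusted p alone 18 genes passed, all of them lower, while 35.4% of all genes passed in either direction, and the added ones were Muc13, Klk1, Tpsg1, Ern2 and Galnt3. In bulk RNA, fewer goblet cells and less RNA per goblet cell cannot be told apart. The labels number the libraries as separate samples without saying whether animals were pooled, so the p-values measure the spread between these libraries.

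**Figure D1:**
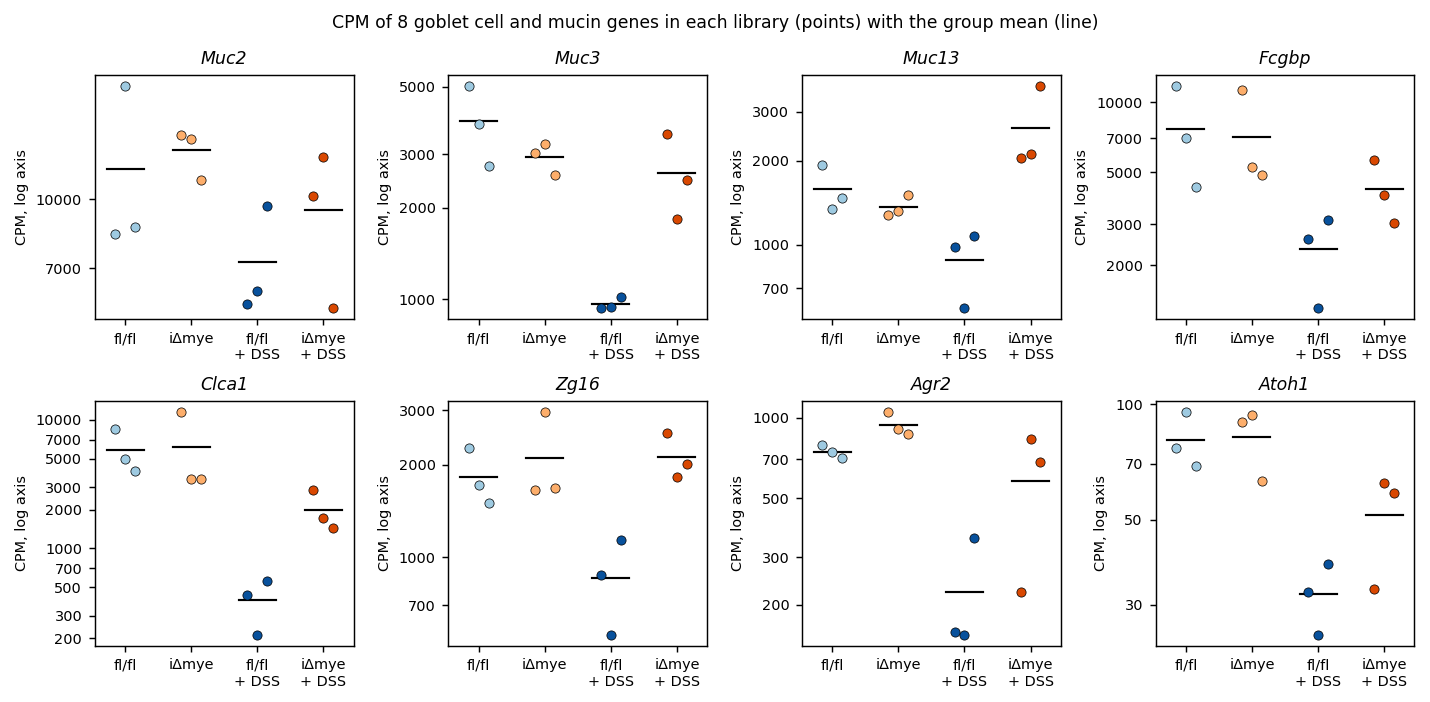
CPM (log axis) of 8 of the genes in each of the 12 libraries, with points for libraries and a line for the mean of 3. In Clca1 and Muc3 the 3 Tmem173fl/fl + DSS libraries lie below the 9 others, and in Muc13 the 3 Tmem173iΔmye + DSS libraries lie above the 9 others.

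Of the 6 mucins, Muc3, Muc4 and Muc20 fell with DSS in Tmem173fl/fl mice. Muc3, a transmembrane mucin (ENSMUSG00000037390, GRCm38 chromosome 5, 137134922 to 137149322), was at 5033, 3769 and 2744 CPM in Tmem173fl/fl and at 936, 944 and 1018 CPM in Tmem173fl/fl + DSS. The 3 DSS libraries were nearly equal and far below the untreated ones, with a log2 fold change of -1.92 (SE 0.21, edgeR adjusted p 9.978e-05). The table also lists Muc3a (ENSMUSG00000094840) as a separate gene, at 229, 345 and 151 CPM without DSS and 170, 203 and 254 CPM with it. Its groups overlapped (log2 fold change -0.13, SE 0.27, edgeR adjusted p 0.736), so what is given for Muc3 holds for the row of that name. Muc4, a large membrane-bound mucin, went from 324, 693 and 418 CPM to 117, 97.1 and 149 CPM. Its log2 fold change of -1.92 carried an SE of 0.27 (edgeR adjusted p 0.00047). Muc20, a small membrane mucin, was at 2.8 to 5.82 CPM and then at 0.71 to 1.41 CPM, a log2 fold change of -1.84 (SE 0.40, edgeR adjusted p 0.00504). Muc4 and Muc20 overlap on opposite strands of chromosome 16, and the library kit does not mark strand, so reads of the shared part cannot be told apart.

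Muc2, the gel-forming mucin of the colon (ENSMUSG00000025515, GRCm38 chromosome 7, 141690340 to 141754693), was not among the called genes. It was at 8361, 18000 and 8675 CPM without DSS and at 5809, 6216 and 9656 CPM with DSS. The groups overlapped, because DSS replicate 3 lay above untreated replicates 1 and 3. The fitted log2 difference was -0.62 (SE 0.31, edgeR adjusted p 0.149). Muc13, a transmembrane mucin, had a log2 fold change of -0.77 (adjusted p by edgeR 0.0279), under the fold required. Muc1, the least abundant of these apart from Muc20, was at 9.46 to 13 CPM and 5.58 to 9.51 CPM, and its log2 fold change was -0.43 (edgeR adjusted p 0.219).

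Among the 8 secreted proteins, 4 fell. Clca1, a secreted metalloprotease that processes the Muc2 network (ENSMUSG00000028255, GRCm38 chromosome 3, 145003817 to 145032776), had the largest difference of the 32 genes. It was at 8530, 4979 and 3980 CPM in Tmem173fl/fl and at 434, 214 and 555 CPM in Tmem173fl/fl + DSS. The highest DSS library was thus far below the lowest untreated one, and the fitted ratio was 0.0721 (log2 fold change -3.79, SE 0.39, edgeR adjusted p 6.397e-05). Spink4, a small peptide of goblet granules, was at 253, 176 and 194 CPM and then at 36.7, 25.3 and 75.6 CPM (log2 fold change -2.11, SE 0.35, edgeR adjusted p 0.00111). Fcgbp, a mucus protein with repeated von Willebrand domains that binds the Muc2 gel, was at 11790, 7011 and 4352 CPM and then at 2589, 1307 and 3121 CPM. Its log2 fold change was -1.65 (SE 0.38, edgeR adjusted p 0.00736).

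Zg16, a lectin-like protein that binds Gram-positive bacteria, was at 2263, 1714 and 1504 CPM and then at 875, 562 and 1141 CPM. It just met the fold required (log2 fold change -1.02, SE 0.26, edgeR adjusted p 0.0111), was not called with limma and a mean-variance trend, and was under it without Tmem173fl/fl replicate 1 (-0.84) and without Tmem173fl/fl + DSS replicate 2 (-0.81). The other 4 secreted proteins were not called. Klk1, a tissue kallikrein with close paralogs, had a log2 fold change of -0.95 (adjusted p by edgeR 0.00137), and Tpsg1, a transmembrane tryptase, of -0.75 (edgeR adjusted p 0.0316). Tff3, a trefoil peptide co-secreted with mucin, had a log2 fold change of -0.46 and Retnlb, a resistin-like bactericidal peptide, of -0.20. Both genes had overlapping groups. Klk1, Zg16 and Tpsg1 each overlap another annotated gene (Gm10109, Gm44939 and Gm22747, and Cacna1h), from which they are not separated by strand.

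The regulators and the ER machinery showed a mixed pattern. Atoh1, the secretory lineage factor, was at 76.9, 95.5 and 69 CPM without DSS and at 32.4, 25.1 and 38.3 CPM with it (log2 fold change -1.26, SE 0.18, edgeR adjusted p 0.000456). Creb3l1, an ER-tethered factor of secretory cells, was at 330, 355 and 324 CPM and then at 126, 99.9 and 160 CPM. The untreated libraries were tight and did not approach the DSS ones (log2 fold change -1.32, SE 0.18, edgeR adjusted p 0.000353). Spdef, the goblet maturation factor, overlapped between the groups, at 61.3, 107 and 72.1 CPM and then 50.2, 41.2 and 96.1 CPM (log2 fold change -0.29, SE 0.30, edgeR adjusted p 0.502). Creb3l4 had its log2 fold change at -0.51 (edgeR adjusted p 0.103).

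Agr2, the disulfide isomerase needed for Muc2 folding, was at 788, 745 and 706 CPM and then at 158, 154 and 354 CPM. It fell by 1.68 on the log2 scale (SE 0.30, edgeR adjusted p 0.00168). Pdia5, another disulfide isomerase of the ER, fell by 1.10 (SE 0.17, edgeR adjusted p 0.000907). Ern2, the ER stress sensor of mucus-secreting epithelia, was lower by 0.91 (edgeR adjusted p 0.0108), under the fold required. Tmed3, a cargo receptor of early export, had a log2 fold change of -0.23, the smallest in this group, although its untreated libraries (65.9 to 72.6 CPM) did not overlap the DSS ones (55.1 to 59 CPM).

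Of the granule and other goblet proteins, Capn9, a digestive tract calpain, fell by 1.18 on the log2 scale (SE 0.24, edgeR adjusted p 0.00389). Bcas1, a membrane-associated protein of uncertain role in this tissue, fell by 1.03 (SE 0.24, edgeR adjusted p 0.00718). Both lay close to the fold required. Bcas1 was under it without Tmem173fl/fl replicate 1 (-0.83), Tmem173fl/fl + DSS replicate 1 (-0.97) or Tmem173fl/fl + DSS replicate 2 (-0.88), and Capn9 without Tmem173fl/fl + DSS replicate 2 (-0.99). Sytl2, a Rab27 effector of granule docking, had its log2 fold change at -0.51 (edgeR adjusted p 0.109). Bcas1 also overlaps the antisense genes Bcas1os1 and Bcas1os2.

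None of the 7 glycosylation enzymes was called. Galnt3, which adds the first GalNAc to mucin, had a log2 fold change of -0.82 (adjusted p by edgeR 0.0171). The log2 fold change was -0.44 for Galnt12, a second such transferase, -0.60 for C1galt1, the core 1 synthase, and -0.30 for Fut2, the secretor fucosyltransferase. The only positive values among the 32 genes were those of Gcnt3, the core 2 and core 4 branching enzyme (0.76, SE 0.39), and B3gnt6, the core 3 synthase (0.48, SE 0.60). Gcnt3 was at 77.3, 193 and 75.9 CPM without DSS and at 157, 122 and 277 CPM with it, and untreated replicate 2 lay among the DSS libraries. Without it both genes were called higher, with log2 fold changes of 1.33 for Gcnt3 (edgeR adjusted p 0.0124) and 1.59 for B3gnt6 (edgeR adjusted p 0.0329).

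**Figure D2:**
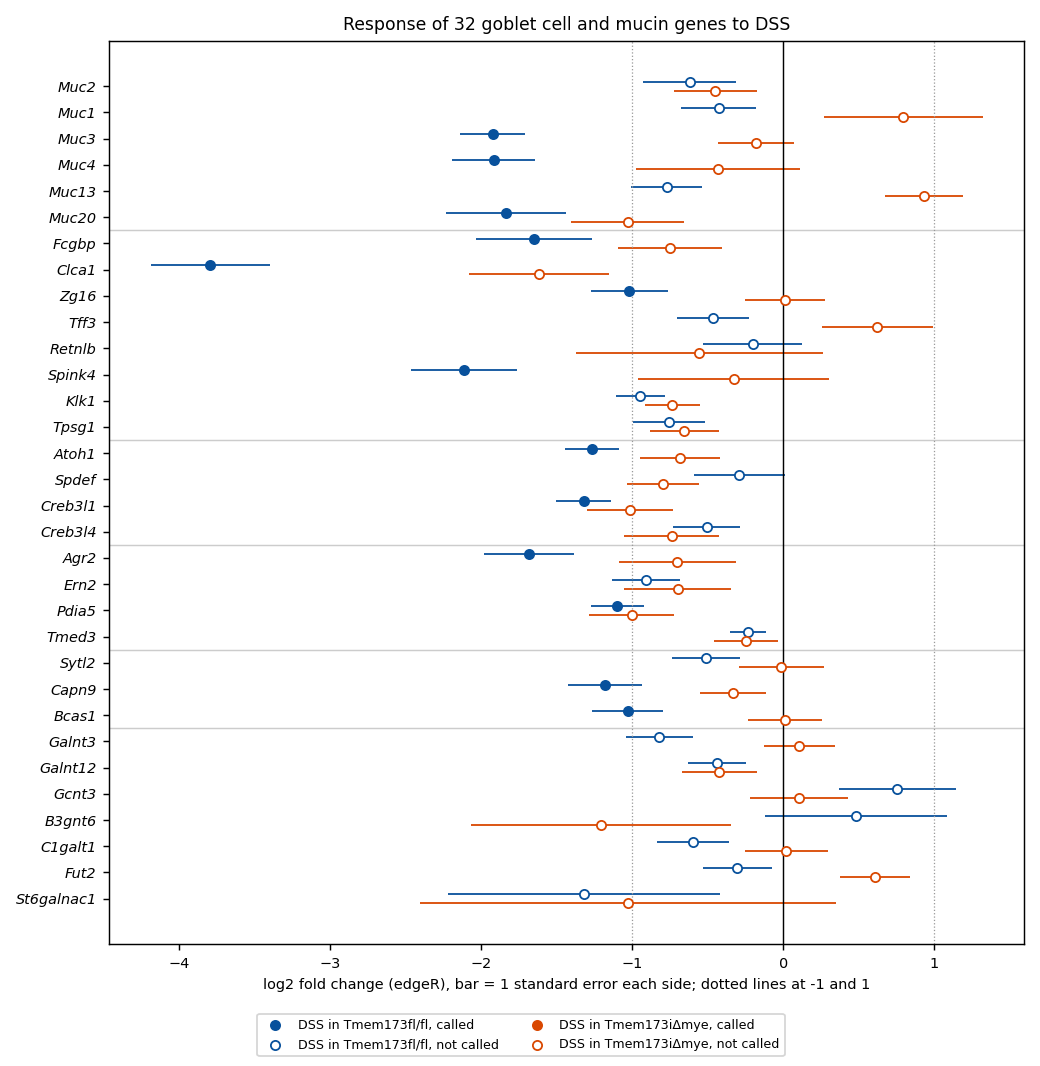
Log2 fold change of each of the 32 genes for DSS in Tmem173fl/fl (blue) and in Tmem173iΔmye mice (orange), with bars of 1 SE on each side and filled points for called genes. In Tmem173fl/fl mice 13 genes are filled, all to the left of -1, while in Tmem173iΔmye mice 0 are filled.

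The second comparison asked the same in mice with the myeloid deletion. Of the 32 genes 0 were called by edgeR, against 0.597% called lower and 1.48% called higher over all genes. At an unadjusted p under 0.05 there were 11, against 15.6% of all genes, and DESeq2 called 2 lower, Clca1 and Creb3l1, against 1.42%. The median log2 fold change was -0.44. Levels of 9 genes did not overlap and were lower with DSS, against 9.41% of all genes, and 1 gene did not overlap and was higher, against 12.1%. That gene was Muc13, at 1277, 1327 and 1508 CPM in Tmem173iΔmye and 2047, 2112 and 3712 CPM in Tmem173iΔmye + DSS (log2 fold change 0.93, SE 0.26, edgeR adjusted p 0.105).

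Clca1 was at 11530, 3447 and 3468 CPM in Tmem173iΔmye and at 2856, 1724 and 1445 CPM in Tmem173iΔmye + DSS. Every DSS library was below every untreated one, but the untreated spread was wide (log2 fold change -1.62, SE 0.46, edgeR adjusted p 0.119). Muc3 overlapped, at 3018, 3232 and 2555 CPM and then 3500, 1836 and 2460 CPM (log2 fold change -0.18, SE 0.25, edgeR adjusted p 0.789). Zg16, Bcas1, Sytl2 and C1galt1 had log2 fold changes between -0.01 and 0.02. The transcription factors were all on the negative side, at -0.68 for Atoh1, -0.80 for Spdef, -1.02 for Creb3l1 and -0.74 for Creb3l4, with edgeR adjusted p of 0.11 to 0.292. Pdia5 was close to Creb3l1, with an edgeR adjusted p of 0.111, and Klk1 at -0.73 (SE 0.18, edgeR adjusted p 0.0791). For Muc2 the log2 fold change was -0.45 (SE 0.28, edgeR adjusted p 0.486), from 13920, 13690 and 11030 CPM to 10180, 12480 and 5695 CPM.

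Without DSS the genotypes were compared to see what the deletion alone changed. Of the 32 genes 0 were called, as were 0% of all genes. At an unadjusted p under 0.05 there were 4 (Retnlb, Spink4, Tpsg1 and Agr2), against 2.99% of all genes, and DESeq2 called 0 of the 32 genes and 0.0124% of all genes. The median log2 fold change was 0.13, with 26 positive values. Levels of Tpsg1, Agr2 and Tmed3 did not overlap and were higher in Tmem173iΔmye, and this pattern was found in 3.66% of all genes. Agr2 was at 788, 745 and 706 CPM in Tmem173fl/fl and at 1050, 905 and 867 CPM in Tmem173iΔmye (log2 fold change 0.34, SE 0.14, edgeR adjusted p 1). The largest value was that of Retnlb, 1.62 (SE 0.57, edgeR adjusted p 1), which rested on 1 library at 564 CPM beside 154 and 64.2 CPM. Muc2 differed by 0.15 (SE 0.24) and Muc3 by -0.38 (SE 0.19).

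The comparison of genotypes under DSS asked whether the colitic colon differed with the deletion. Muc3, Muc13 and Clca1 were called higher in Tmem173iΔmye + DSS than in Tmem173fl/fl + DSS and 0 of the 32 genes lower. Over all genes, 0.822% were called higher and 1.99% lower. The median log2 fold change was 0.83 over the 32 genes and 0.02 over all genes, and 29 of the 32 values were positive. Levels of 11 genes did not overlap, all of them higher in Tmem173iΔmye + DSS, while 26.8% of all genes did not overlap in either direction. This comparison shares the Tmem173fl/fl + DSS libraries with the first one, so the values of both are given side by side and are not independent.

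Muc13 (ENSMUSG00000022824, GRCm38 chromosome 16, 33794037 to 33819934) was at 984, 594 and 1075 CPM in Tmem173fl/fl + DSS and at 2047, 2112 and 3712 CPM in Tmem173iΔmye + DSS. The log2 fold change was 1.56 (SE 0.34, edgeR adjusted p 0.0467), and the highest value came from replicate 5. Muc13 overlaps Gm15657 on the opposite strand, so reads of the shared part cannot be told apart. Muc3 was at 936, 944 and 1018 CPM against 3500, 1836 and 2460 CPM, a fitted ratio of 2.69 (SE of the log2 value 0.28, edgeR adjusted p 0.0371). The separate Muc3a row was at 272, 275 and 51.9 CPM in Tmem173iΔmye + DSS and overlapped Tmem173fl/fl + DSS (log2 fold change -0.07, SE 0.52, edgeR adjusted p 0.958). For Clca1, levels of 434, 214 and 555 CPM stood against 2856, 1724 and 1445 CPM. No library of one group reached the other, and the log2 fold change was 2.32 (SE 0.41, edgeR adjusted p 0.0278). It remained below the untreated Tmem173iΔmye libraries, whose lowest was 3447 CPM.

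These 3 calls were close to the threshold. Leaving out Tmem173fl/fl + DSS replicate 1, 2 or 3 or Tmem173iΔmye + DSS replicate 2 left 0 of the 32 genes called, and 0.112% to 0.846% of all genes against 2.81% with every library. Without Tmem173iΔmye + DSS replicate 5, Muc4 and Clca1 were called, with 2.11% of all genes, and without replicate 1 there were 5 (Muc3, Muc13, Clca1, Agr2 and Bcas1), with 6.61% of all genes. The log2 fold changes in these fits ran from 1.14 to 1.63 for Muc3, from 1.22 to 1.74 for Muc13 and from 1.96 to 2.64 for Clca1. DESeq2 called 9 of the 32 genes higher, and it also called more of all genes higher, 2.75%. With limma 0 of the 32 genes were called, and of all genes 0.0705% (pseudocount 0.1) or 0.257% (pseudocount 1) were called higher. Adding a mean-variance trend to limma, which had been dropped after low numbers of called genes were seen, again gave 0.

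Several genes just missed the threshold. Bcas1 had a log2 fold change of 1.23 (SE 0.28, edgeR adjusted p 0.0544), from 42.8, 35.8 and 65.9 CPM in Tmem173fl/fl + DSS to 79.6, 131 and 130 CPM in Tmem173iΔmye + DSS. Zg16 was at 875, 562 and 1141 CPM against 2528, 1828 and 2005 CPM (log2 fold change 1.30, SE 0.30, edgeR adjusted p 0.0576). Capn9 differed by 0.98 (edgeR adjusted p 0.072) and Galnt3 by 1.03 (edgeR adjusted p 0.0822). All 4 had groups without overlap, as had Muc20, Tff3, Klk1 and Fut2. Tff3 was at 215, 141 and 283 CPM against 358, 367 and 949 CPM, and Fut2 at 189, 118 and 224 CPM against 384, 397 and 256 CPM. Agr2 overlapped, at 158, 154 and 354 CPM against 223, 833 and 684 CPM (log2 fold change 1.37, SE 0.50, edgeR adjusted p 0.171).

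For other genes a genotype difference was not detectable with 3 libraries a group. Muc2 was at 5809, 6216 and 9656 CPM against 10180, 12480 and 5695 CPM. The lowest library of all belonged to Tmem173iΔmye + DSS, and the log2 fold change was 0.38 (SE 0.35, edgeR adjusted p 0.595). Atoh1 was at 32.4, 25.1 and 38.3 CPM against 33, 62.3 and 58.7 CPM (log2 fold change 0.68, SE 0.27, edgeR adjusted p 0.206). Among the other regulators the values were 0.40 for Creb3l1, 0.23 for Creb3l4 and -0.17 for Spdef (SE 0.30, 0.32 and 0.33). Ern2, Pdia5 and Tmed3 differed by 0.28 to 0.31. Negative values were found only for Spdef, Gcnt3 (-0.18) and B3gnt6 (-0.90, SE 0.94).

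**Figure D3:**
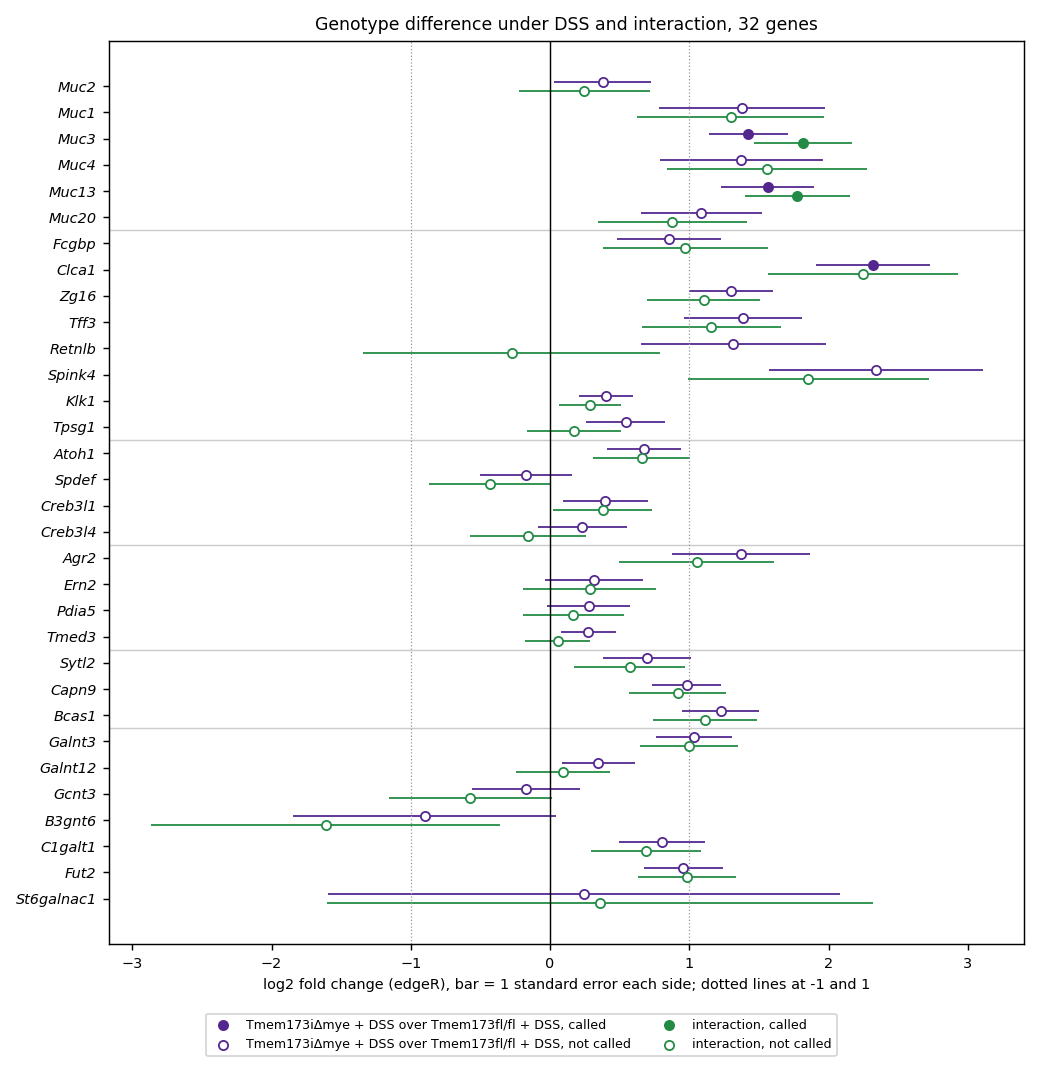
Log2 fold change of the 32 genes between genotypes under DSS (purple) and their interaction of genotype and DSS (green), with bars of 1 SE on each side and filled points for called genes. Muc3 and Muc13 are filled in both, and Clca1 in the genotype comparison alone.

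Whether the response to DSS differed between genotypes was tested with the interaction over all 12 libraries. A positive value means a less negative or more positive response in Tmem173iΔmye. Of the 32 genes 2 were called higher, Muc3 and Muc13, and 0 lower, against 0.934% called higher and 1.61% lower over all genes. For Muc3 the interaction was 1.82 (SE 0.35, edgeR adjusted p 0.0167), the responses being -1.92 in Tmem173fl/fl and -0.18 in Tmem173iΔmye mice. For Muc13 it was 1.78 (SE 0.38, edgeR adjusted p 0.0263), with responses of -0.77 and 0.93. Both genes encode transmembrane mucins, which absorptive cells also make. Of 14 markers of colonocytes, the absorptive cells of the colon, 8 were lower and 1 higher with DSS in Tmem173fl/fl mice, against 7.61% and 14.9% of all genes. In Tmem173iΔmye mice 1 was lower and 0 higher, against 0.597% and 1.48%. Between genotypes under DSS 4 of the 14 were higher and 0 lower, against 0.822% and 1.99%, with a median of 0.85. Higher were Atp12a by 4.45, Car4 by 2.10, Slc26a3 by 1.84 and Ceacam20 by 1.43. The same 4 were called in the interaction, where the 14 had a median of 0.94. The summed level of the 14 markers was 5450 to 9137 CPM in Tmem173fl/fl + DSS and 6074 to 14260 CPM in Tmem173iΔmye + DSS. Their part in the values of Muc3 and Muc13 was not tested. The median over the 32 genes was 0.67, and 0.04 over all genes.

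Clca1 had the largest interaction, 2.25, but its SE was 0.68 (edgeR adjusted p 0.098). The 4 transcription factors had small values, from -0.43 for Spdef to 0.66 for Atoh1. Muc2 was at 0.25 (SE 0.47, edgeR adjusted p 0.831), an SE too wide to separate a response equal in both genotypes from a moderate difference. Leaving out Tmem173fl/fl replicate 1, Tmem173iΔmye replicate 3 or Tmem173fl/fl + DSS replicate 1 left 0 genes called, with 1.11% to 1.29% of all genes against 2.55% with every library. Muc3 alone was called without Tmem173fl/fl replicate 3 or Tmem173iΔmye replicate 2, and Muc3 and Clca1 without Tmem173iΔmye replicate 1. Without Tmem173iΔmye + DSS replicate 1 there were 4 calls, with 7.17% of all genes, and 3 without Tmem173iΔmye + DSS replicate 5 or Tmem173fl/fl + DSS replicate 3. Among the 9 libraries with Y-linked counts, a choice made after seeing the data, 0 genes were called, at 1.93 for Muc3 (edgeR adjusted p 0.0588) and 1.54 for Muc13 (edgeR adjusted p 0.108). DESeq2 called 2, Muc3 and Muc13, with 5.66% of all genes, while limma with a mean-variance trend called 0, although it called 2.06% or 2.51% of all genes.

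By their medians, general epithelial markers moved in the same directions, so each gene was also set against them within each library. The median log2 fold change was -0.96 with DSS in Tmem173fl/fl mice and 0.74 between genotypes under DSS. Single markers could differ, as Cldn4 had a higher mean with DSS in Tmem173fl/fl mice. Of 16 such markers, 7 were called lower with DSS in Tmem173fl/fl mice, against 7.61% of all genes (Hnf4a -1.32, Cdh1 -1.26, Krt8 -1.22 and Epcam -1.21 among them). In Tmem173iΔmye mice 0 of the 16 markers were called lower, against 0.597% of all genes. Between genotypes under DSS 1 of the 16 markers was called higher and 0 lower, against 0.822% and 1.99% of all genes. Their summed level was 15700 to 19680 CPM in Tmem173fl/fl, 16680 to 20020 in Tmem173iΔmye, 6355 to 10840 in Tmem173fl/fl + DSS and 12780 to 16050 in Tmem173iΔmye + DSS. Summed fibroblast markers were at 1214 to 1554 CPM in the untreated libraries, 8200 to 10390 in Tmem173fl/fl + DSS and 2411 to 3500 in Tmem173iΔmye + DSS. Summed leukocyte and neutrophil markers were at 321 to 479 CPM in Tmem173fl/fl and 242 to 283 CPM in Tmem173iΔmye, without overlap. With DSS they were at 791 to 1041 CPM in Tmem173fl/fl + DSS and 454 to 809 CPM in Tmem173iΔmye + DSS. The sum includes Lyz2, the gene named in Lyz2-Creert2, and its part in the genotype difference was not tested. With DSS in Tmem173fl/fl mice 6 of these 10 markers were called higher, against 14.9% of all genes. All 6 were myeloid or neutrophil genes such as S100a8, S100a9 and Lyz2, while the general leukocyte gene Ptprc (log2 fold change -0.10) and the T cell gene Cd3e (-0.45) were not called. The part of these shifts in the changes of the 32 genes was not tested beyond the subtraction that follows.

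The median log2 level of the 16 epithelial markers was 0.98 lower in Tmem173fl/fl + DSS than in Tmem173fl/fl, a difference of -0.98 for that group. Relative to it, 16 of the 32 genes were positive and 16 negative, with a median difference of 0.01, while all genes tested had a median of 0.97. Clca1 stayed at -2.91, Spink4 at -1.32, Muc3 at -0.97, Muc4 at -0.95, Agr2 at -0.88, Creb3l1 at -0.43 and Atoh1 at -0.35. These 7 had groups without overlap, against 2.54% of all genes lower in this way. A further 8 did not overlap and were higher, against 68.7% of all genes, namely B3gnt6 (1.84), Gcnt3 (1.72), Retnlb (0.79), Tmed3 (0.69), Fut2 (0.58), Galnt12 (0.47), Tff3 (0.41) and Sytl2 (0.35). For B3gnt6 the untreated libraries were far apart, with replicate 1 at 6.06 CPM beside 57.6 and 18.9 CPM. For groups of 3 without overlap the exact permutation test gives a two-sided p of 0.1, the lowest possible with 3 against 3 libraries. Muc2 was at 0.35 relative to the epithelium (exact permutation p 0.6) and Muc13 at 0.11 (exact permutation p 0.7).

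Between genotypes under DSS the epithelial median differed by 0.86, and all genes tested had a relative median of -0.85. The 32 genes were centred near the epithelium, with a median of -0.06, 14 positive and 18 negative values. Clca1 stayed higher in Tmem173iΔmye + DSS by 1.51, Muc13 by 0.70 and Zg16 by 0.49, each at an exact permutation p of 0.1, and Muc3 by 0.52 (exact permutation p 0.2). Clca1, Muc13 and Zg16 were the 3 genes without overlap on the higher side, against 0.548% of all genes. Muc2 was at -0.50 (exact permutation p 0.2), while the 4 genes without overlap on the lower side, against 63.8% of all genes, were B3gnt6 (-2.76), Gcnt3 (-1.04), Spdef (-0.96) and Creb3l4 (-0.69), each at an exact permutation p of 0.1. The value of B3gnt6 rested largely on Tmem173iΔmye + DSS replicate 5, at 0.607 CPM beside 17.7 and 41.2 CPM. For DSS in Tmem173iΔmye mice the epithelial median differed by -0.12. There the 32 genes had a relative median of -0.50 with 22 negative values, and all genes a median of 0.12. Without overlap 7 genes were lower and 1 higher, against 1198 and 3794 of all 24102 genes. The log2 fold changes of the 16 markers themselves had a median of -0.39 there, near the -0.44 of the 32 genes. The relative median thus depends on how the epithelium is summarised. Without DSS the relative median was 0.14, with an epithelial difference of -0.01.

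**Figure D4:**
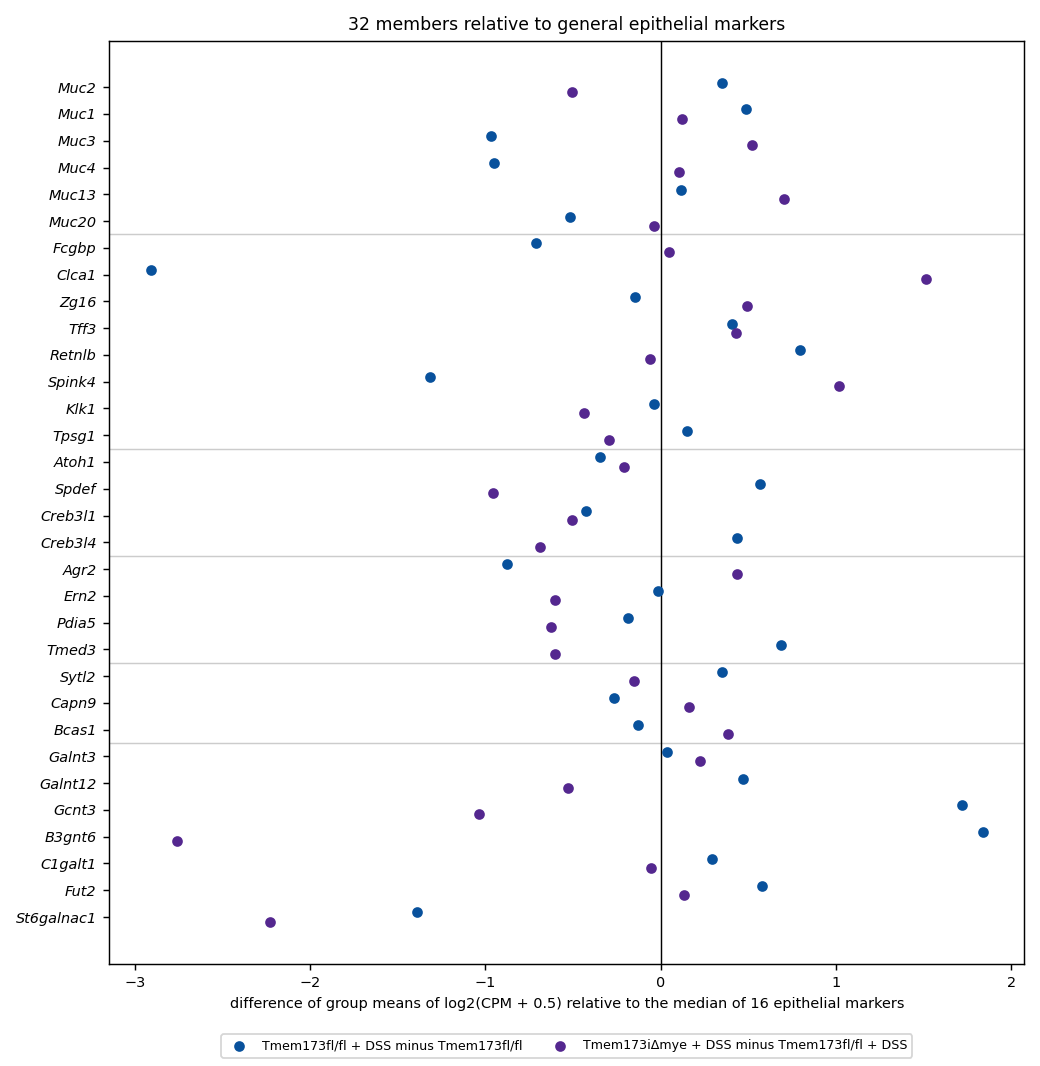
Difference of group means of each of the 32 genes relative to the median of 16 epithelial markers (log2 of CPM + 0.5), for DSS in Tmem173fl/fl mice (blue) and for genotype under DSS (purple). The blue points fall evenly on both sides of 0 (16 and 16), with Clca1 farthest to the left at -2.91, and Clca1 is farthest to the right of the purple points at 1.51.

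Some of the genes had single libraries far from their group. St6galnac1, the sialyltransferase that caps the first GalNAc of mucin glycans (ENSMUSG00000009588, GRCm38 chromosome 11, 116765025 to 116775507), had 282 to 787 counts in all 6 untreated libraries. With DSS it had 2, 340 and 322 counts in Tmem173fl/fl + DSS and 1, 0 and 743 counts in Tmem173iΔmye + DSS. The counts of 3 or fewer in 3 of 6 DSS libraries left its SE at 0.90 to 1.96 in the comparisons with DSS, and no call was made. B3gnt6 was at 0.607 CPM in Tmem173iΔmye + DSS replicate 5 and at 6.06 CPM in Tmem173fl/fl replicate 1, against 17.7 to 60.3 CPM in the other 10 libraries. Retnlb was at 564 CPM in Tmem173iΔmye replicate 1 and 404 CPM in Tmem173iΔmye + DSS replicate 2, and at 41 to 154 CPM elsewhere. Spink4 was at 58.8, 115 and 525 CPM in Tmem173iΔmye + DSS, so that its difference from Tmem173fl/fl + DSS (log2 fold change 2.34, SE 0.77, edgeR adjusted p 0.138) rested largely on replicate 5. That library also had the highest Muc1 (44.1 CPM against 5.58 to 13 elsewhere), the highest Tff3 (949 CPM) and the highest Muc13 of the 12, and the lowest Muc4 (64.4 CPM) and Muc2.

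**Figure D5:**
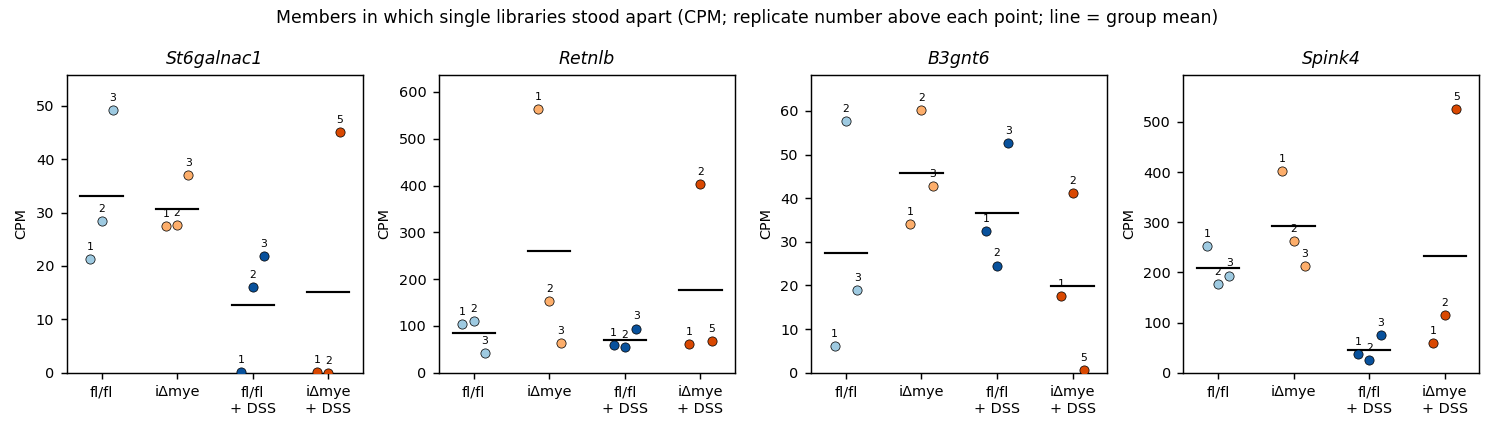
CPM of St6galnac1, Retnlb, B3gnt6 and Spink4 in each library, with the replicate number above each point and a line for the group mean of 3. St6galnac1 sits near 0 in 3 of the 6 DSS libraries, Retnlb is high in 2 libraries of different groups, and Spink4 reaches 525 CPM in 1 Tmem173iΔmye + DSS library.

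Other genes of the same biology were taken from lists written by name and were read in the same fits. Of 34 other goblet cell genes tested, 17 were called lower with DSS in Tmem173fl/fl mice and 0 higher, against 7.61% and 14.9% of all genes, with a median log2 fold change of -1.02. Ang4, an antimicrobial ribonuclease, was at 142, 43 and 33.6 CPM and then at 1.25, 0.379 and 3.33 CPM (log2 fold change -5.46, SE 0.74, edgeR adjusted p 0.000344). Sval1 was at 287, 154 and 260 CPM and then at 9.75, 5.39 and 11.4 CPM. Foxa2, a factor of epithelial differentiation, had a log2 fold change of -2.57 (SE 0.27), and Itln1, an intelectin, fell from 34, 14 and 15 counts to 2, 1 and 3 counts. In Tmem173iΔmye mice Ang4 alone was called lower, at 0.499, 1.93 and 0 CPM with DSS after 549, 10.5 and 16.3 CPM without it. Between genotypes under DSS, 5 of the 34 were higher and 0 lower, against 0.822% and 1.99% of all genes. Sval1 was at 63.2, 101 and 435 CPM in Tmem173iΔmye + DSS (log2 fold change 4.49, SE 0.74, edgeR adjusted p 0.0237), followed by Rep15, a Rab15 effector (1.90), Nlrp9b, an intracellular sensor (1.85), and Pla2g10, a secreted phospholipase (1.67). The interaction called 5 of the 34 higher, against 0.934% of all genes, with Sval1 again first at 4.91 (SE 0.80, edgeR adjusted p 0.00793).

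Of 29 other O-glycosylation genes tested, 13 were called lower and 3 higher with DSS in Tmem173fl/fl mice, against 7.61% and 14.9% of all genes. B3gnt7, which extends lactosamine chains, had a log2 fold change of -4.14 (SE 0.32), and B3gnt5, which starts the lacto-series of glycolipids, of -2.76 (SE 0.20). Gcnt4, a further branching enzyme, rose by 2.95 (SE 0.22) and St3gal1, which sialylates core 1, by 2.89 (SE 0.30). In Tmem173iΔmye mice 1 of the 29 was called, St6galnac2 at -1.13. Between genotypes under DSS 6 were higher and 0 lower, against 0.822% and 1.99% of all genes, led by B3gnt7 (3.48), B3gnt5 (2.88), St3gal4 (1.85) and St3gal6 (1.82). In the interaction 4 were called higher, against 0.934% of all genes. B3gnt7 was at 19.9, 21.2 and 36.7 CPM in Tmem173fl/fl + DSS and at 162, 164 and 544 CPM in Tmem173iΔmye + DSS.

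Of 25 general secretory and unfolded protein genes, 1 was called for DSS in Tmem173fl/fl mice (Pdia3 lower, log2 fold change -1.07) and 0 in Tmem173iΔmye mice or between genotypes. Their summed level was nevertheless 5221 to 5967 CPM in Tmem173fl/fl and 3718 to 4406 CPM in Tmem173fl/fl + DSS, without overlap, and the median log2 fold change was -0.33. In Tmem173iΔmye mice the sum was 5204 to 5668 CPM without DSS and 4416 to 4864 CPM with it. These groups did not overlap either, and the median was -0.22. Of 13 genes of cytokine pathways known to act on goblet cells, 4 were higher and 1 lower with DSS in Tmem173fl/fl mice, where 14.9% and 7.61% of all genes were. Il33, an alarmin, rose by 3.55 (SE 0.36) there and by 2.49 (SE 0.29) in Tmem173iΔmye mice, where it was the only call. Il4ra rose by 1.65 and Stat3 by 1.06. Il18 was higher in Tmem173iΔmye + DSS than in Tmem173fl/fl + DSS (edgeR adjusted p 0.0423), and its interaction was 2.13 (SE 0.51). Of 12 Notch and secretory fate genes 2 were called higher with DSS in Tmem173fl/fl mice, a share near the 14.9% of all genes, with Notch2, at 1.51, the one above 1 FPKM, and of 5 other mucin genes Emcn, an endothelial sialomucin, rose by 2.15. Of 9 crypt and cycling markers 8 were lower in that comparison and 1 higher, against 7.61% and 14.9% of all genes. Ascl2 (-3.96), Axin2 (-2.44), Top2a (-2.44) and Mki67 (-1.81) were among those lower. In Tmem173iΔmye mice 4 of the 9 were lower and 0 higher, with a median of -1.21, against 0.597% and 1.48% of all genes. In these lists 0 genes were called between genotypes without DSS.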

How the data were processed

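RNA of the total colon was isolated with TRIzol and lithium chloride, and polyA libraries were made with a NEBNext Ultra kit, which does not mark strand. The submitters' processing notes name CASAVA 1.8, fastp, HISAT2 2.0.5, featureCounts 1.5.0-p3, DESeq2 1.20.0 and GRCm38; the strand setting and annotation release are not given in the sources used here. The authors deposited whole-number counts per gene and library, without normalisation. The FPKM values deposited beside them equal counts per length and library total times a constant for each library. A further 25 columns hold the authors' own comparisons (fold changes, p-values and group values) and were not used.

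Genes with at least 0.1 FPKM in at least 3 of the 12 libraries were tested, 24102 of 54532. Counts were scaled by TMM and fitted with edgeR's quasi-likelihood test (edgeR 4.0.16, R 4.3.3), the pairwise comparisons on their 2 groups and the interaction on all 4. P-values were adjusted by Benjamini-Hochberg over all genes tested. Called genes had an adjusted p under 0.05 and a log2 fold change of 1 or more in either direction. The SE is the fold change divided by the root of the F statistic. CPM are counts scaled to a common TMM-adjusted library size. Levels relative to the epithelium are log2(CPM + 0.5) minus the median of 16 epithelial markers in the same library, compared by exact two-sided permutation. Scripts were tested on simulated data. Depth was 13823237 to 18718915 counts per library, and precision rests on it and on 3 libraries a group. No 2 libraries were identical.

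All 32 genes are accounted for, called genes are named, and from each other list up to 4 called genes of at least 1 FPKM with the largest change may be named. The genes and lists were chosen with earlier results of these data known. Alternatives were DESeq2 1.42.0, limma 3.58.1 on log2(FPKM + 0.1) or log2(FPKM + 1), other scalings and filters, unadjusted p, adjusted p alone, 1 fit of all libraries, a replicate block and leaving out each library. A set of libraries with Y-linked counts was added after seeing the data. The mean-variance trend of limma was dropped after low numbers of called genes were seen, and limma was later run both without and with it.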

Additional observations from a re-analysis of the deposited data

Results flagged for a closer look

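Muc3 and Muc13 were picked out because the test of the difference itself, the interaction of genotype and DSS over all 12 libraries, placed their responses to DSS apart between Tmem173fl/fl and Tmem173iΔmye mice. For Muc3 the interaction was 1.82 on the log2 scale (SE 0.35, edgeR adjusted p 0.0167). For Muc13 it was 1.78 (SE 0.38, edgeR adjusted p 0.0263), with a response of -0.77 in Tmem173fl/fl and 0.93 in Tmem173iΔmye mice. Neither was called by limma with a mean-variance trend, at 1.69 for Muc3 and 1.71 for Muc13 on log2(FPKM + 0.1) or log2(FPKM + 1). Groups of 3 libraries were not tested for single distant values.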

How the results depend on the processing

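With 3 libraries a group, calls near either threshold moved with the settings, and none of the 18 called values changed direction. The share of all genes called stands in brackets. For DSS in Tmem173fl/fl mice, with 13 calls (22.5%), the other settings gave 10 to 18 and leaving out 1 library 10 to 16. For DSS in Tmem173iΔmye mice, with 0 calls (2.08%), there were 3 without a filter (3.29%), 2 with DESeq2 (4.72%), 4 at unadjusted p (9.1%), 2 in 1 fit of all libraries (4.07%), 2 in libraries with Y-linked counts (2.59%, chosen after seeing the data) and 0 to 3 with 1 library left out (Pdia5 without Tmem173iΔmye + DSS replicate 2, 1.54%, and Spink4, Creb3l1 and St6galnac1 without replicate 5 of that group, 6.09%). For genotype without DSS, with 0 calls (0%), there was 1, Retnlb, without a filter (0.226%) and 1 at unadjusted p (1.36%). For genotype under DSS, with 3 calls (2.81%), there were 8 without a filter (4%), 2 with edgeR's own filter (Muc3 and Clca1, 3.55%, with Muc13 at an edgeR adjusted p of 0.0537), 2 in libraries with Y-linked counts (Muc4 and Clca1, 2.11%), 9 with DESeq2 (6.72%), 0 with limma at a pseudocount of 0.1 (0.295%) and 0 at 1 (1.15%), 12 at unadjusted p (10.4%), 9 in 1 fit (6.19%) and 0 to 5 with 1 library left out (0.112% to 6.61%). For the interaction, with 2 calls (2.55%), there were 3 without a filter (Muc3, Muc13 and Clca1, 3.69%), 0 with limma at 0.1 (1.53%), 8 at unadjusted p (11.4%), 0 in libraries with Y-linked counts (0.834%) and 0 to 4 with 1 library left out (1.11% to 7.17%). The mean-variance trend of limma was first dropped after low numbers of called genes were seen, and was then run as well. With it there were 0 calls for genotype under DSS at a pseudocount of 0.1 (0.581%) and 0 at 1 (0.639%), and for the interaction 0 at 0.1 (2.06%) and 0 at 1 (2.51%), where limma without the trend gave 2 at 1 (2.66%). For genotype under DSS, the set with Y-linked counts is the same fit as leaving out Tmem173iΔmye + DSS replicate 5. For DSS in Tmem173fl/fl mice, it is the same fit as leaving out Tmem173fl/fl replicate 3. The causes of these differences between settings were not tested.

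Replicate numbers shared between groups did not pair the libraries: correlations of their deviations ran from -0.172 to 0.184. With the replicate number as a block the calls were 13 for DSS in Tmem173fl/fl (20.5%), 8 for DSS in Tmem173iΔmye (5.68%), 2 for genotype without DSS (0.39%), 12 for genotype under DSS (3.52%; 11 higher and 1 lower, St6galnac1) and 4 for the interaction (2.45%). The Tmem173iΔmye + DSS library whose number no other group has stood alone in its block, so it did not inform the group effects. In the fits for DSS in Tmem173iΔmye and genotype under DSS, the unmatched library of the other group was alone too. These fits thus rested on 2 pairs of libraries each, and the interaction on the libraries without the unmatched one. Their calls are not blocked results of every library. Scaling by library totals alone moved the median of all genes for DSS in Tmem173fl/fl from 0.03 to 0.17 and left 10 of the 13 calls.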

Other observations

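A search of all 54532 genes, made after the values of St6galnac1 were seen, looked for genes with at most 3 counts in 1 to 6 libraries and at least 200 in every other. It found 5, namely 4 Y-linked genes and St6galnac1. In the 3 libraries where St6galnac1 had 2, 1 and 0 counts, the nearest genes kept counts: over all 12 libraries St6galnac2 (ENSMUSG00000057286) had 223 to 820 counts, a second row of that name (ENSMUSG00000110170) 17 to 65, Mxra7 90 to 316 and Jmjd6 339 to 809.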
